A study of Caenorhabditis elegans with 6 samples.

Results

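The expression of 85 genes was compared directly between worms without *hlh-11* and worms labelled as over-expressing it, the outer genotypes of the series. The comparison used 4 of the 6 sequenced libraries: 2 from *hlh-11* knock-out (KO) worms and 2 from *hlh-11* over-expression (OE) worms. The 2 wild-type libraries stayed out of the contrast and served only to estimate the spread between replicates and as a reference level. All worms were *C. elegans* of the N2 background, collected whole as synchronized young adults after growth at 20 °C on *E. coli* OP50, and polyadenylated RNA was sequenced. The KO worms carried a CRISPR/Cas9 allele that shifts the reading frame in an exon common to every *hlh-11* transcript. The sources used here state neither which transgene the OE worms carried nor whether the 2 libraries of a genotype came from separate cultures. Each library came from a pool of worms, so fewer cells of a type and less RNA per cell cannot be told apart.

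HLH-11 is a basic helix-loop-helix transcription factor, a protein class that binds short DNA motifs as dimers, and its human counterpart is TFAP4 (AP-4). In the paper its tagged protein is found in nuclei of the intestine, of neurons and of excretory cells. The intestine digests food, stores fat, makes yolk and carries much of the worm's innate immunity. The study sequenced both genotypes to look for genes under the control of HLH-11, with fat use as its main interest. The table analysed here was selected. In every row the wild-type mean falls between the KO mean and the OE mean, so that KO and OE had to differ, and every test below describes the size of a difference that the selection required. Genes outside the table, *hlh-11* itself among them, were not analysed here.

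Values were in RPKM, a read count scaled to gene length and to the total reads of the library. They were compared as log2(RPKM + 0.5) in limma, with p-values adjusted by Benjamini-Hochberg over the 85 genes. The difference KO minus OE on this scale is called the span of a gene below, where 1 equals 2-fold for a gene well above the added 0.5. Its standard error was 0.157 for every gene, because the model gave all genes 1 pooled spread. The SDs of single genes within genotypes ran from 0.0336 to 0.361, so the pooled value understates the error of some genes. Library totals recovered from the RPKM steps were 17411299 and 18986861 reads in KO and 19116180 and 24023096 reads in OE. Between 2 libraries and 2 libraries an exact permutation test cannot give a two-sided p below 0.333, so the calls for single genes rest on the pooled spread.

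All 85 genes differed between KO and OE at an adjusted p under 0.05 (100% of the genes tested, largest adjusted p = 3.68e-04 from limma). KO was the higher genotype in 60 of them (70.6%) and the lower in 25 (29.4%). In each of the 85 genes (100%) both KO libraries lay on 1 side of both OE libraries. The absolute span ran from 0.57 to 7.23, with a median of 1.35. In the ratio of mean RPKM the median gene differed 2.54-fold between the genotypes, the least different 1.49-fold and the most different 196.3-fold. A span of at least 2-fold was reached by 60 genes (70.6%), 42 of them higher in KO (49.4%) and 18 lower (21.2%), and one of at least 4-fold by 16 genes higher in KO (18.8%) and 8 lower (9.41%), together 28.2%. Measured between the closest libraries, the lowest of the high pair over the highest of the low pair, the smallest ratio was 1.35, for *crt-1*, and 54 genes were still at least 2-fold apart.

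**Figure D1:**
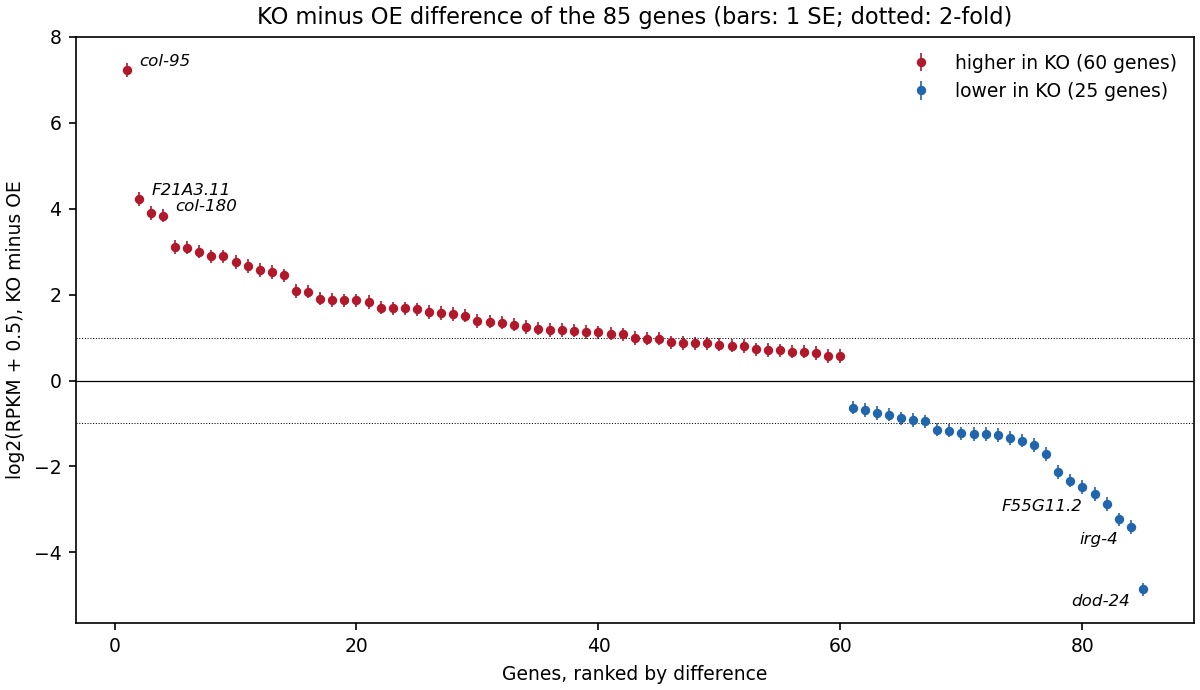
KO minus OE difference in log2(RPKM + 0.5) for each of the 85 genes, ranked from the highest to the lowest (bars, 1 SE from the pooled spread; dotted lines, 2-fold; red, higher in KO; blue, lower in KO). The 60 genes higher in KO run from 7.23 for *col-95* down to 0.57, no gene lies between 0.57 and -0.63, and the 25 lower genes reach -4.86 for *dod-24*.

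Cuticle collagens held the widest difference of the table. Collagens form the worm's cuticle, which the epidermis secretes anew at each molt, and their genes are a large family of related sequences between which reads may be shared. KO exceeded OE in each of the 7 collagen genes present and in 70.6% of all genes, with a median span of 2.89 against 0.99 over all 85 genes. *col-95* (chromosome III of WBcel235 from 11703994 to 11705091) was at 271 and 297 RPKM in the KO libraries and 1.87 and 1.02 RPKM in the OE libraries. The KO pair came from 5000 and 5991 reads and the OE pair from 38 and 26 reads. The span of *col-95* was 7.23 ± 0.157 (pooled SE), while its own SD within genotypes was 0.268. Over the pooled reads KO exceeded OE 204-fold (95% exact interval 159 to 264), an interval that covers counting error only.

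The other collagens fell into a less abundant and a more abundant set. *col-180* (chromosome X of WBcel235 from 11711378 to 11712280) was at 293 and 253 RPKM in the KO libraries and 15.9 and 21.7 RPKM in the OE libraries, a span of 3.84. *col-150* was at 69.4 and 67.9 RPKM in KO against 5.67 and 9.87 RPKM in OE and spanned 3.11. For *col-144* the values were 208 and 175 RPKM in KO against 22.8 and 28 RPKM in OE, a span of 2.89. Within these 3 genes the 2 libraries of a genotype differed by far less than the genotypes did, although *col-150* had the widest gap of all genes between the OE libraries, 0.75 on the log2 scale. The abundant collagens *col-139*, *col-81* and *col-129* spanned much less, at 0.80, 0.86 and 0.70. Of these, *col-139* was at 2591 and 2899 RPKM in KO against 1556 and 1596 RPKM in OE. Those 3 genes alone took 0.760% and 0.834% of all reads in the KO libraries and 0.447% and 0.478% in the OE libraries. In absolute RPKM they thus differed more than *col-95*, which had the wider ratio.

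Several little-characterized genes stood next to the collagens at the KO end. *F21A3.11* (chromosome V of WBcel235 from 15530783 to 15533212) was at 22.8 and 21.9 RPKM in the KO libraries and 0.557 and 0.912 RPKM in the OE libraries, a span of 4.22. Its OE pair rested on 17 and 35 reads, and over the pooled reads KO exceeded OE 29.5-fold (95% exact interval 22.4 to 39.8). *msrp-3* was at 26 and 26.5 RPKM in KO against 1.58 and 1.05 RPKM in OE, a span of 3.90 that rested on 12 and 10 reads in OE. Both genes were near the detection floor in OE and well covered in KO, and their libraries did not overlap. *F21C10.10* was at 58.4 and 55.8 RPKM in KO against 5.48 and 7.08 RPKM in OE, and its span was 3.10. For *Y43F8C.3* the span was 3.0, and pooled reads put KO above OE 13.6-fold (95% exact interval 10.6 to 17.8). *sdz-24*, named for transcripts that depend on the transcription factor SKN-1 in the early embryo, was at 20.5 and 20.1 RPKM in KO against 2.09 and 2.54 RPKM in OE. Its span was 2.89, and its KO libraries lay 7.92-fold above the nearer OE library.

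Below them came 3 genes of 2.45 to 2.67 that have a known identity. *tts-1* (chromosome X of WBcel235 from 1504131 to 1504841), the 1 non-coding RNA of the table, is a long RNA known to associate with ribosomes in long-lived worms. It was at 84 and 70.7 RPKM in the KO libraries and 11.6 and 11.9 RPKM in the OE libraries, a span of 2.67. *rips-1*, which encodes a methyltransferase-like protein, was at 91.4 and 94.7 RPKM in KO against 13.9 and 16.6 RPKM in OE and spanned 2.58. *ccch-1*, which encodes a zinc finger protein of the CCCH type, was at 70.2 and 72.1 RPKM in KO against 11.4 and 14 RPKM in OE, a span of 2.45. In all 3 the lower KO library was at least 5.01 times the higher OE library.

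**Figure D2:**
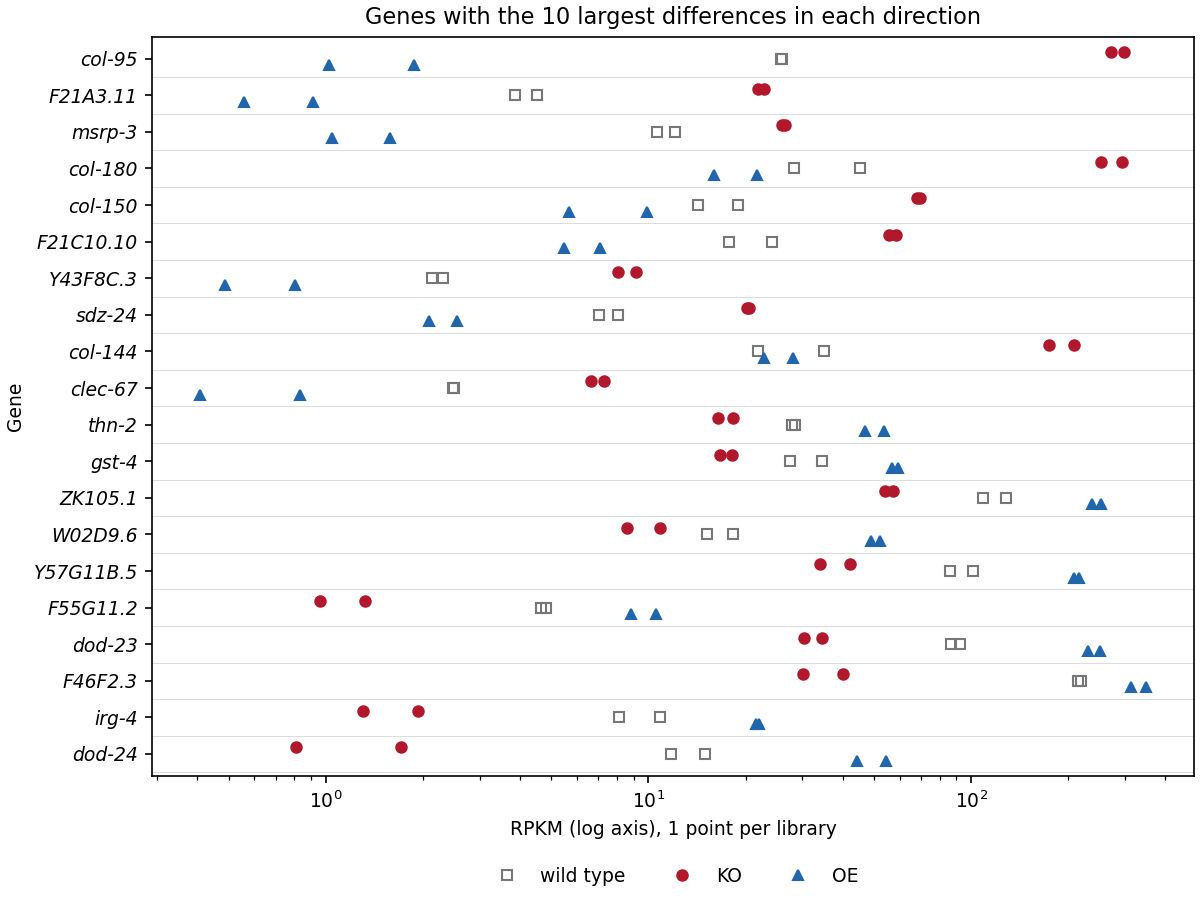
RPKM on a log axis in each library for the 10 genes with the largest span in each direction (red circles, KO; blue triangles, OE; grey squares, wild type; 1 point per library). KO and OE points are separate in all 20 genes, with *col-95* at 271 and 297 RPKM in KO and 1.87 and 1.02 RPKM in OE, and *dod-24* at 0.810 and 1.72 RPKM in KO and 44.2 and 54.6 RPKM in OE. The wild-type points lie between them except in *col-144*, where 1 is below both OE points and the other above.

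Immune response genes other than lectins lay mostly at the other end of this selected table. Over all genes, the paper reports innate immune genes, C-type lectins included, among those raised in KO against the wild type. It also reports genes of the *pmk-1* pathway, *F55G11.2* among them, as unchanged or lowered in KO. The worm has no antibodies or circulating immune cells and answers pathogens by secreting effectors, many of them from the intestine and under the p38 kinase PMK-1. Of the 6 immune response genes outside the lectins, 5 were lower in KO and 1 was higher, while 29.4% of all genes were lower, and the median span was -2.76 against 0.99 over the table. *dod-24* (chromosome IV of WBcel235 from 12940106 to 12941354), named as a gene downstream of the transcription factor DAF-16 and a member of a family with CUB-like domains, had the deepest span of the table at -4.86. It was at 0.81 and 1.72 RPKM in the KO libraries and 44.2 and 54.6 RPKM in the OE libraries. The KO pair held 16 and 37 reads and the OE pair 958 and 1488 reads, which over the pooled reads put OE above KO 38.9-fold (95% exact interval 29.7 to 52.1). The KO libraries of *dod-24* differed more between themselves than those of any other gene (0.76 on the log2 scale), yet the higher of them was 25.7 times below the lower OE library.

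Next came *irg-4*, an infection response gene of the same CUB-like family (chromosome IV of WBcel235 from 12435833 to 12438236), with 1.3 and 1.93 RPKM in the KO libraries and 22 and 21.6 RPKM in the OE libraries, a span of -3.41. Its OE libraries were nearly equal and its KO libraries held 26 and 42 reads. *F55G11.2*, which lies 26091 bases from *dod-24* on chromosome IV, was at 0.959 and 1.32 RPKM in KO against 8.83 and 10.5 RPKM in OE and spanned -2.64. *dod-23* was more abundant, at 30.4 and 34.6 RPKM in KO against 231 and 250.4 RPKM in OE, and its span was -2.87. *thn-2*, a thaumatin-like gene of a family related to plant defence proteins, was at 18.3 and 16.5 RPKM in KO against 53.5 and 46.7 RPKM in OE, a span of -1.50. The exception was *spp-18*, which encodes a saposin-like protein, a class that includes membrane-lysing antimicrobials. It was at 52.9 and 50.9 RPKM in KO against 9.79 and 14.7 RPKM in OE, with a span of 2.07. Summed over the 6 genes, the level was 105 and 107 RPKM in KO, 369 and 399 RPKM in OE and 184 and 168 RPKM in the wild type.

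Lectins, proteins that bind sugars, divided between the directions much as the whole table did. Of the 4 C-type lectin genes, many of which respond to bacteria in the intestine, 1 was lower in KO and 3 were higher, near the 70.6% of all genes that were higher. Lowest in level, *clec-67* was at 7.26 and 6.63 RPKM in the KO libraries and 0.407 and 0.83 RPKM in the OE libraries, a span of 2.76, with 16 and 41 reads in OE and a pooled excess in KO of 10.8-fold (95% exact interval 8.2 to 14.4). *clec-85* was at 58.4 and 60.9 RPKM in KO against 7.71 and 12.7 RPKM in OE, a span of 2.53. Of its annotated exon length, 27.7% is shared with *Y54G2A.40*, so that part of its reads may belong to that gene. The length recovered from its RPKM was 923 bases against 1434 annotated, so whether the shared part was counted is not known. The abundant *clec-63* was at 856 and 828 RPKM in KO against 336 and 444 RPKM in OE, a span of 1.12. *clec-10* went the other way, at 11.3 and 12.9 RPKM in KO against 28.9 and 28.9 RPKM in OE, a span of -1.23. The 3 galectin genes, which encode lectins specific for galactosides, were on the KO side that held 70.6% of the table, with a median span of 0.98 against 0.99 over all genes. *lec-9* was at 327 and 309.9 RPKM in the KO libraries and 78.8 and 95.9 RPKM in the OE libraries and spanned 1.87, roughly the same ratio as *lbp-7* at a much higher level. *lec-10* was at 323 and 327 RPKM in KO against 151 and 180.3 RPKM in OE and spanned 0.98, and the span of *lec-2* was 0.87.

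The 3 lipid carrier genes were higher in KO, as were 70.6% of all genes, with a median span of 1.24 against 0.99 over the table. *lbp-7* (chromosome V of WBcel235 from 13879552 to 13880213), an intracellular fatty acid-binding protein, was at 72.2 and 71 RPKM in the KO libraries and 19.1 and 18.3 RPKM in the OE libraries. Its span was 1.91, and within genotypes its libraries were the most tightly grouped of the table, with an SD of 0.0336 on the log2 scale. *dsc-4*, the large subunit of the transfer protein that loads lipid onto lipoproteins, was at 49.9 and 49.1 RPKM in KO against 17.7 and 24.1 RPKM in OE and spanned 1.24. *npa-1*, a polyprotein cut into fatty acid-binding units, was at 144.2 and 134 RPKM in KO against 82.2 and 91.9 RPKM in OE and spanned 0.67. Of 2 lists drawn up for the core pathways of fat, breakdown (lipases, acyl-CoA synthetases, acyl-CoA dehydrogenases and other enzymes of beta-oxidation) and synthesis, the table held 0 members, so the comparison says nothing about them.

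A few metabolic enzymes on no list were picked out after their values were seen, and they are described singly. *pck-1*, the phosphoenolpyruvate carboxykinase that opens gluconeogenesis, was at 85.2 and 69.5 RPKM in the KO libraries and 17.9 and 23.9 RPKM in the OE libraries, a span of 1.87. *adh-1*, an alcohol dehydrogenase, was at 41.2 and 41.8 RPKM in KO against 13.8 and 13 RPKM in OE and spanned 1.60, with libraries of each genotype within 6% of each other. Narrower spans were found for *smd-1*, the S-adenosylmethionine decarboxylase of polyamine synthesis (0.99), for *bcat-1*, the branched-chain aminotransferase (0.71), and for *gas-1*, a core subunit of mitochondrial complex I (0.67). *bcat-1* was at 165 and 166 RPKM in KO against 94 and 109 RPKM in OE. The 2 listed transporters were also among the 70.6% of genes higher in KO, with a median span of 0.95, close to the 0.99 of the table: the solute carrier *slc-17.6* with a span of 1.17 and the ABC transporter *haf-9* with 0.72. *slc-17.6* was at 20.2 and 22.8 RPKM in KO against 8.11 and 10.6 RPKM in OE, and *haf-9* at 43.9 and 43.1 RPKM in KO against 24.1 and 28.3 RPKM in OE.

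The 2 conjugation enzymes, which attach glutathione or sugar to foreign and reactive compounds, went in opposite directions. *gst-4*, a glutathione S-transferase that SKN-1 induces under oxidative stress, was at 16.7 and 18.1 RPKM in the KO libraries and 59.5 and 57 RPKM in the OE libraries, a span of -1.72. *ugt-50*, a UDP-glucuronosyltransferase, was at 19.3 and 16.4 RPKM in the KO libraries and 6.03 and 7.13 RPKM in the OE libraries, a span of 1.37. The 2 genes had overlapping levels in KO, while in OE *gst-4* was well above *ugt-50* in both libraries. Of the annotated exon length of *ugt-50*, 17% is shared with *nhr-26* on the opposite strand, and the sources used here do not state whether reads were counted by strand.

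Peptidase genes, most of them coding for enzymes that break down protein in lysosomes and gut granules, were 6 higher and 2 lower in KO (70.6% and 29.4% in the whole table), with a median span of 0.89 against 0.99 over all genes. The aspartyl protease *asp-4* (chromosome X of WBcel235 from 13218985 to 13221462) was at 373 and 371 RPKM in the KO libraries and 124 and 137 RPKM in the OE libraries, a span of 1.51. *tag-196*, a cysteine protease related to cathepsin F, was at 49.5 and 44.2 RPKM in KO against 17.2 and 18 RPKM in OE and spanned 1.39. The spans of *asp-3* and *asp-5* were 1.09 and 0.81, and *asp-3* was the most abundant at 1164 and 1124 RPKM in KO against 505 and 571 RPKM in OE. The 2 lower genes each shared a family name with genes among the higher ones. *asp-13* was at 122 and 133 RPKM in KO against 224 and 245 RPKM in OE, a span of -0.88. The paralogs *ctsa-1.1* and *ctsa-1.2*, homologs of cathepsin A that may share reads, spanned -0.79 and 0.98. *ctsa-1.1* was at 249.6 and 251 RPKM in KO against 418 and 451 RPKM in OE, and *ctsa-1.2* at 231 and 214 RPKM in KO against 109 and 116 RPKM in OE. The aminopeptidase *lap-2* had 1 of the 2 narrowest spans among the genes higher in KO, 0.57, with a mean of 226 ± 13.2 RPKM in KO (SD, n = 2) and values of 151.6 and 151.8 RPKM in OE.

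Sperm genes had spans of similar size. The major sperm proteins build the cytoskeleton that lets nematode sperm crawl, and in hermaphrodites their transcripts come from a short period of spermatogenesis before adulthood. The 6 sperm genes were higher in KO, against 70.6% of all genes of the table, with a median span of 1.61 against 0.99 and a range from 1.3 for *nspd-5* to 1.83 for *msp-49*. *msp-49* was at 181 and 189 RPKM in the KO libraries and 47.8 and 55.9 RPKM in the OE libraries. *msp-3* was at 158 and 147 RPKM in KO against 49 and 45.4 RPKM in OE, a span of 1.68. The spans of *msp-45*, *msp-50* and *msp-33* were 1.65, 1.57 and 1.35. The *msp* genes are near-identical copies between which reads may be divided, so these 5 genes are not separate measurements. The summed level of the 6 sperm genes, *nspd-5* included, was 1288 and 1328 RPKM in KO, 417 and 489 RPKM in OE and 806 and 636 RPKM in the wild type. Levels of sperm and collagen transcripts change with developmental stage. The summed level of the collagens was 8018 and 8673 RPKM in KO and 4268 and 4567 RPKM in OE. In the wild type it was 6024 and 5404 RPKM. Most of that sum came from *col-81*, *col-129* and *col-139*. The part of developmental stage in any difference of the table, sperm genes and collagens included, was not tested. The lists of oocyte and embryo genes and of neuron genes had 0 members in the table, and the intestine and muscle lists shared a single one, the actin gene *act-5*, whose protein lines the microvilli of the gut. It was at 767 and 774 RPKM in KO against 465 and 521 RPKM in OE, a span of 0.65.

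**Figure D3:**
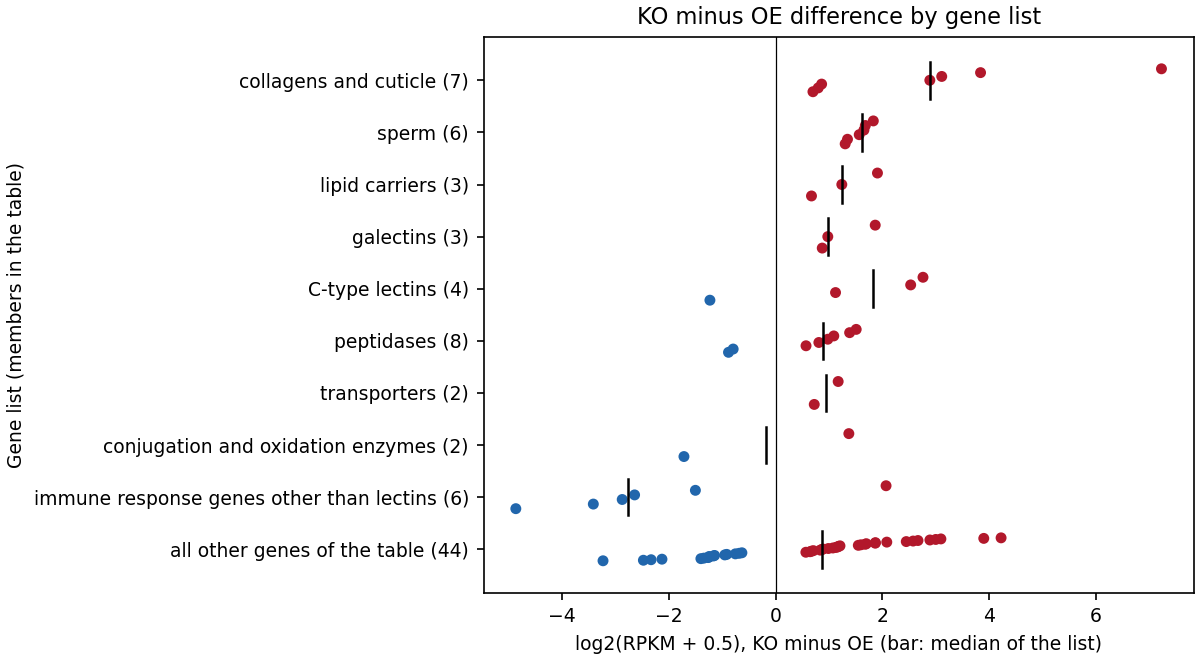
KO minus OE difference in log2(RPKM + 0.5) of each gene by list (1 point per gene; red, higher in KO; blue, lower in KO; black bar, median of the list; number of members in brackets). All 7 collagens, 6 sperm genes, 3 lipid carriers and 3 galectins lie above 0, as do 70.6% of all genes, and 5 of the 6 immune response genes other than lectins lie below it, with a median of -2.76.

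Of the 43 genes on no list, 27 were higher and 16 were lower in KO, beside 60 and 25 in the whole table. Of those lower, *F46F2.3* (chromosome X of WBcel235 from 15259579 to 15260287) was at 39.9 and 30.1 RPKM in the KO libraries and 312 and 349 RPKM in the OE libraries, a span of -3.23. *Y57G11B.5* was at 34.1 and 42 RPKM in KO against 216 and 209 RPKM in OE, and its span was -2.47. *W02D9.6* was at 8.55 and 10.9 RPKM in KO against 48.8 and 52.4 RPKM in OE and spanned -2.33. *ZK105.1* was at 57.4 and 54 RPKM in KO against 253 and 237 RPKM in OE and spanned -2.13. In these 4 genes of unstated function the OE libraries exceeded the KO libraries by at least 4.13-fold between the closest pair.

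Further genes lower in KO were neighbours on chromosome X. *ZK813.3*, *ZK813.7* and *ZK813.1* lie within a few kilobases of each other, with 2356 and 1114 bases between them, and spanned -1.14, -1.16 and -1.34. *ZK813.7* was at 110.00 and 134 RPKM in KO against 261 and 284 RPKM in OE. *Y62H9A.5* and *ule-5*, which is named for the uterine lumen where its protein is found, are 227 bases apart and spanned -1.24 and -1.25. *ule-5* was at 132 and 161 RPKM in KO against 335 and 361 RPKM in OE. In all 5 of these genes KO replicate 1 was below KO replicate 2, by 0.21 to 0.33 on the log2 scale. The same held in 22 of the 25 genes lower in KO, beside 49 of all 85 genes. The median absolute gap between the KO libraries was 0.24 in the 25 lower genes. Both KO libraries were below the OE libraries in these 5 genes, as in every gene lower in KO. Other spans below 0 were *T03D3.5* at -1.40, *C27C7.1* at -1.26, *srlf-7* at -0.95, *T09B9.4* at -0.91, *T03F6.3* at -0.75, *D1054.10* at -0.68 and the transthyretin-related *ttr-51* at -0.63. For *ttr-51*, the smallest difference of the lower genes, the values were 187 and 189 RPKM in KO against 302 and 279.8 RPKM in OE. *D1054.10* had the closest libraries of the lower genes, at 231 and 296 RPKM in KO against 413 and 427 RPKM in OE. With each gene tested on its own spread over the KO and OE libraries alone, a check added once the values were known, it alone missed the threshold, with an adjusted p = 0.0626 (limma without empirical Bayes).

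On the KO side the remaining genes were of middling span. *endu-2*, a nuclease of the EndoU family that the intestine secretes, was at 39.3 and 38.4 RPKM in KO against 9.0 and 11.8 RPKM in OE and spanned 1.87. *F49C12.7* was at 28.6 and 29.3 RPKM in KO against 6.51 and 6.39 RPKM in OE, a span of 2.08, and shares 13% of its annotated exon length with *F49C12.6*. Spans between 1 and 2 were found for *F22B7.9* (1.70), *F54C9.3* (1.68), *F26F12.3* (1.55), *F08F3.4* (1.21), the transthyretin-related *ttr-17* (1.18), the testican homolog *test-1* (1.16), *F16B4.4* (1.13) and *F46G10.1* (1.07). Of the annotated exon length of *test-1*, 12.5% is shared with *C54E4.12* on the opposite strand. Below 1 were the calmodulin-like *cal-5* (0.89), the translation elongation factor *eef-1A.2* (0.87) and *C16B8.3* (0.84). The narrowest span belonged to *crt-1*, the calcium-binding chaperone calreticulin of the endoplasmic reticulum, with 1160.4 and 1009.95 RPKM in KO against 711 and 749.8 RPKM in OE and a span of 0.57. *eef-1A.2* was at 472 and 434 RPKM in KO against 234 and 262 RPKM in OE.

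The 85 genes together took 2.39% and 2.43% of all reads in the KO libraries, 1.46% and 1.59% in the OE libraries and 1.8% and 1.69% in the wild-type libraries. For the 60 genes higher in KO the share was 2.24% and 2.26% in KO and 1.1% and 1.22% in OE. For the 25 lower genes it was 0.153% and 0.170% in KO and 0.360% and 0.375% in OE. As sets of 60 and 25 genes, not scaled to the number of genes, those higher in KO thus carried more reads in both genotypes. Within the share of the higher set, *col-81*, *col-129* and *col-139* alone made up 0.760% and 0.834% in KO and 0.447% and 0.478% in OE.

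The position of the wild type within the span was described as a percentage, with 0% at the OE mean and 100% at the KO mean on the log2(RPKM + 0.5) scale. No test was made of it, since the selection placed the wild type between the genotypes. In the 60 genes higher in KO its median was 44.2% (range 4.41% to 72.1%), and in 17 of them the wild type was nearer to KO than to OE. In the 25 genes lower in KO the median was 57.2% (range 18.8% to 74.2%), and in 18 of them the wild type was nearer to KO. The wild type thus lay, by the median gene of either direction, closer to the genotype with the lower level. At the extremes, the wild type of *col-144* was almost at the OE level (4.41%), followed by *F46F2.3* (18.8%), *ccch-1* (21.7%), *eef-1A.2* (23.1%) and *col-180* (24.1%). Nearest to KO were *D1054.10* (74.2%), *ttr-51* (73.4%), *endu-2* (72.1%) and *msrp-3* (69.9%). *col-95*, with the widest span, had its wild type near the middle (52.5%), at 25.8 and 25.9 RPKM.

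**Figure D4:**
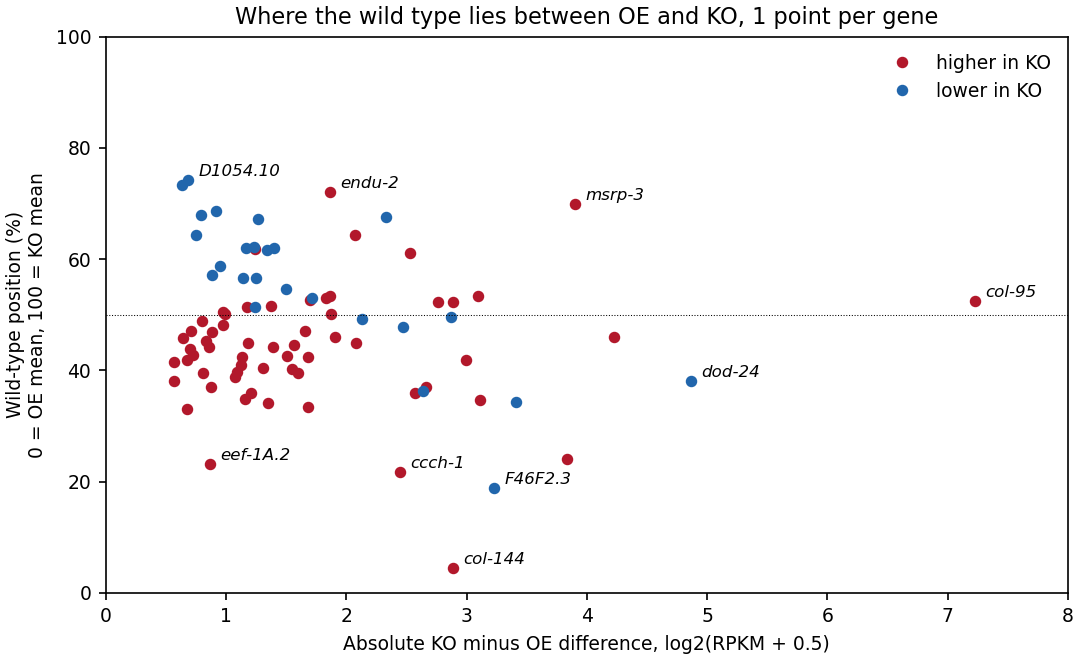
Position of the wild-type mean between the OE mean (0%) and the KO mean (100%) against the absolute KO minus OE difference, both from log2(RPKM + 0.5), with 1 point per gene (red, higher in KO; blue, lower in KO; dotted line, 50%). Points range from 4.41% for *col-144* to 74.2% for *D1054.10*, with medians of 44.2% for the 60 genes higher and 57.2% for the 25 genes lower in KO.

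The replicates of a genotype differed more on the side where a gene was low. In the 60 genes higher in KO the median absolute difference between libraries was 0.0593 on the log2 scale within KO and 0.23 within OE. For the 25 genes lower in KO it was 0.24 within KO and 0.0998 within OE. The direction was uneven too. OE replicate 1 was below OE replicate 2 in 51 of the 60 genes higher in KO, 16 of the 25 lower and 67 of all 85. KO replicate 1 was below KO replicate 2 in 22 of the 25 genes lower in KO, 27 of the 60 higher and 49 of all 85. The genes of the table share their libraries and are not independent. Without OE replicate 1 the number of genes spanning at least 2-fold was 57, and without OE replicate 2 it was 64, against 60 with both.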

How the data were processed

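Whole young adults were used for polyadenylated RNA sequencing (HiSeq2500), 2 libraries per genotype. Per the labels and the paper's methods, the authors aligned reads to WBcel235 with TopHat2 (FastQC 0.11.5 and DESeq2 are named in the submitters' processing notes); the read counter and the use of strand are not stated there. The authors deposited RPKM values for 85 genes with opposite changes in KO and OE. All 85 identifiers matched a symbol. Coordinates come from an Ensembl annotation of WBcel235.

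With 1 length for each gene and 1 total for each library, all 510 values came out as whole reads (within 1e-10 reads). Totals and lengths are therefore inferred, and counting intervals cover counting error only. The lengths were 0.644 to 1.72 times the annotated exon lengths, and within 10% of them for 61 of the 85 genes. log2(RPKM + 0.5) was fitted with limma 3.58.1 in R 4.3.3 (lmFit and eBayes with a constant prior) over all 6 libraries, without a filter on low values, with the contrast KO minus OE, two-sided, Benjamini-Hochberg over 85 genes and a threshold of 0.05. Exact (Clopper-Pearson) 95% intervals of pooled read ratios used SciPy 1.17.1. The read recovery and the fit were tested on simulated data. P-values measure the spread between these libraries, which may be technical.

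The members, the 16 gene lists (11 with members) and the rule for naming genes were chosen with earlier results of these data known. The rule took the 10 largest differences in each direction whose libraries do not overlap, the 2 largest per list and the 4 smallest differences, 36 genes in all. From the list of conjugation and oxidation enzymes the *sdz* and *msrp* genes were removed after values were seen, since their names give no enzyme function. All other genes were named after their values were seen. Other pseudocounts, a filter, other spread models, voom on the recovered reads, a replicate block and leaving out each library were tried.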

Additional observations from a re-analysis of the deposited data

How the results depend on the processing

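The 60 genes higher and 25 lower in KO passed the threshold under each alternative that kept all genes: pseudocounts of 0.1 and 1, the KO and OE libraries only, no empirical Bayes (largest adjusted p = 0.0302 from limma), limma-trend, voom on the recovered reads, and leaving out any 1 of the 6 libraries. With a mean of at least 5 RPKM, 83 genes were tested and 58 and 25 passed. No span changed sign. With the replicate number as a block, 60 and 25 passed and 60 genes reached 2-fold. The numbers are not stated to mark a shared culture, and deviations of same-numbered KO and OE libraries correlated at -0.13 across genes. With the numbers crossed, on the KO and OE libraries only, 60 and 25 also passed. On each gene's own spread in those 4 libraries, added after the data were seen, 60 and 24 passed. The median absolute span ranged from 1.28 to 1.46, and genes of at least 2-fold from 57 to 64, when 1 library was left out. A library left alone in its group was assumed to vary like the others. The voom fit moved the span of *clec-67* most, by 0.79, because no RPKM is added there. Leaving out 1 library moved the median wild-type position to between 38.9% and 49.4% in the genes higher in KO and between 53.1% and 63.9% in those lower. Depth limits the 9 genes with under 100 reads in their lower pair of libraries, *col-95*, *F21A3.11*, *msrp-3*, *Y43F8C.3*, *sdz-24*, *clec-67*, *F55G11.2*, *irg-4* and *dod-24*.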

Other observations

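The 85 genes were placed on the WBcel235 annotation, as a description without a test. Chromosome X held 20 of them, 23.5% of the table against 13.7% of annotated protein-coding genes, with 13 higher and 7 lower in KO. Chromosome I held 5 (5.88% against 14.4%) and chromosome III held 5 (5.88% against 13.2%). Chromosome IV held as many genes lower in KO (8) as higher (8), *dod-24*, *irg-4*, *F55G11.2*, *thn-2* and *gst-4* among the lower ones, while chromosome V held 19 higher and 4 lower. Along the chromosomes 9 pairs of table genes were at most 50 kb apart, and 7 of them went the same way. The 2 mixed pairs were *ctsa-1.1* beside *msp-3* and *tag-196* beside *asp-13*.

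The genes lower in KO were shorter, with a median recovered length of 793 bases against 1182 bases for those higher in KO, and their median level in the genotype where they were high was 210 RPKM in OE against 120 RPKM in KO for the others. These values describe a selected table and were not compared with genes outside it.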
